A study of Mus musculus with 6 samples.

Results

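Transcripts of 35 collagen, matrix and stromal genes were examined by RNA-seq in uterine neutrophils of PRPL mice, a model of uterine tumours. The genes were chosen by function, as products of fibroblasts and other stromal cells, but with earlier results of these data known. All 35 were found by Ensembl ID among the 43432 genes of the count tables. Every mouse was of strain C57BL/6, carried Pgrcre/+ and was 4 weeks old, so both groups shared the Cre allele and no mice without it are among the samples analysed here. Cre expressed from the progesterone receptor locus is known to act in the uterine epithelium and also in uterine stroma and muscle. The normoxia group (3 libraries) was kept in ambient air, and the hyperoxia group (3 libraries) in a chamber at 60% oxygen, from postnatal day 18 to day 28. The sort took CD45+ CD11b+ cells with high Ly6G from digested uteri, and CD45 is a leukocyte marker that fibroblasts lack. The question behind the comparison was what additional oxygen altered in tumour-associated neutrophils, and here it was asked how much matrix RNA these libraries held and how it differed between them.

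The extracellular matrix of a connective tissue is built largely by fibroblasts. Collagen chains are folded and hydroxylated in the endoplasmic reticulum, secreted, trimmed and crosslinked into fibrils, while laminins, nidogen and type IV collagen form the basement membranes beneath epithelium and around vessels and smooth muscle. Small proteoglycans space the fibrils, and binding proteins such as the IGFBPs hold growth factors in the matrix. Neutrophils are not regarded as a main source of fibrillar collagen, and macrophages are known to make fibronectin and IGF-1.

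Libraries held 38683293 to 61715617 counts on genes and 0.257% to 0.383% mitochondrial counts. Neutrophil markers were abundant in all of them: 11 such genes summed to 86214 to 129378 CPM (counts scaled to a common library size, after TMM adjustment), with Ly6g itself between 38.9 and 351 CPM. The 35 matrix genes together took 1978 to 34497 counts of a library, and 3 counts, taken as the floor, corresponded to 0.047 to 0.0771 CPM. The labels do not say whether libraries came from separate animals, so the spread on which the p-values rest may partly be technical. In bulk RNA, more cells of a type and more RNA per cell cannot be told apart.

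The 5 promoters shown here belong to genes on which the results below turn: the members with the highest level per length (Igfbp7), the collagen chaperone (Serpinh1), a fibrillar collagen (Col3a1), and members with groups that did not overlap (Igfbp4, Postn). Each is the 250 bases 5′ of a RefSeq transcription start in build GRCm38.p6, free of annotated exons in GENCODE M21, 5′ to 3′ on the gene's strand. Capitals mark matches on either strand to the TATA box, searched as TATAAA. They also mark the CCAAT box, searched by the letters of its name, and the GC box, searched as GGGCGG. No motif overlaps another here.
Igfbp7 (chr5:77408046-77408295, minus strand): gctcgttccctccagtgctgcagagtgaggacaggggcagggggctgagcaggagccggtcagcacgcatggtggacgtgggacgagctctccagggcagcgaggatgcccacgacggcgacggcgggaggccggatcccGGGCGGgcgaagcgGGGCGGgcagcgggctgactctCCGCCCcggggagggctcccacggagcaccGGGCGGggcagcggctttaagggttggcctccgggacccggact
Serpinh1 (chr7:99353240-99353489, minus strand): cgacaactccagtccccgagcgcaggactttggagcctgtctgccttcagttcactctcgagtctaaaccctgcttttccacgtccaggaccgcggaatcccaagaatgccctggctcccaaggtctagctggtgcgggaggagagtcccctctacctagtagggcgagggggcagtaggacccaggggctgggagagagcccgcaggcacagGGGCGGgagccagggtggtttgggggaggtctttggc
Col3a1 (chr1:45311288-45311537, plus strand): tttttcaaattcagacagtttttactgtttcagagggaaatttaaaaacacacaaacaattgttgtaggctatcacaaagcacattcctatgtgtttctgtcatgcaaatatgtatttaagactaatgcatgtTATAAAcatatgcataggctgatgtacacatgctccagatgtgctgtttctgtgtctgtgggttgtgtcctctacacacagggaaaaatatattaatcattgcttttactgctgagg
Igfbp4 (chr11:99040994-99041243, plus strand): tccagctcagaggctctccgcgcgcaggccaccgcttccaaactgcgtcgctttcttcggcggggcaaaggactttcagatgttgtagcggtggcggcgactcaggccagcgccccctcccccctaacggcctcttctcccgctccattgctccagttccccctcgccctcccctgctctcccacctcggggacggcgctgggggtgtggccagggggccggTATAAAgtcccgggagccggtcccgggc
Postn (chr3:54360857-54361106, plus strand): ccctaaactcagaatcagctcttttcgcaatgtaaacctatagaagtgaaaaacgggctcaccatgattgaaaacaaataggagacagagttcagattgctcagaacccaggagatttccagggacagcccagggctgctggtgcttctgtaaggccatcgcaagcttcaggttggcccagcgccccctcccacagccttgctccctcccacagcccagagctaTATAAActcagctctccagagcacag
The Igfbp4 and Postn windows held a TATA box that began 28 and 26 bases before the start. The Col3a1 match began 117 bases before it. The window at another RefSeq start of Postn, not shown, held no TATA, CCAAT or GC box. Serpinh1 had 1 GC box and Igfbp7 had 4, and neither had a TATA box in this window. RefSeq windows existed for 24 of the 35 genes (26 windows). A TATA box was found in 4 of these 26 windows (15.4%) and in 12.4% of all 32851 windows of the same length in the table. A CCAAT box was found in 6 (23.1%) against 33.8%, and a GC box in 13 against 32.7%. These matches are a description of letters only.

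**Figure D1:**
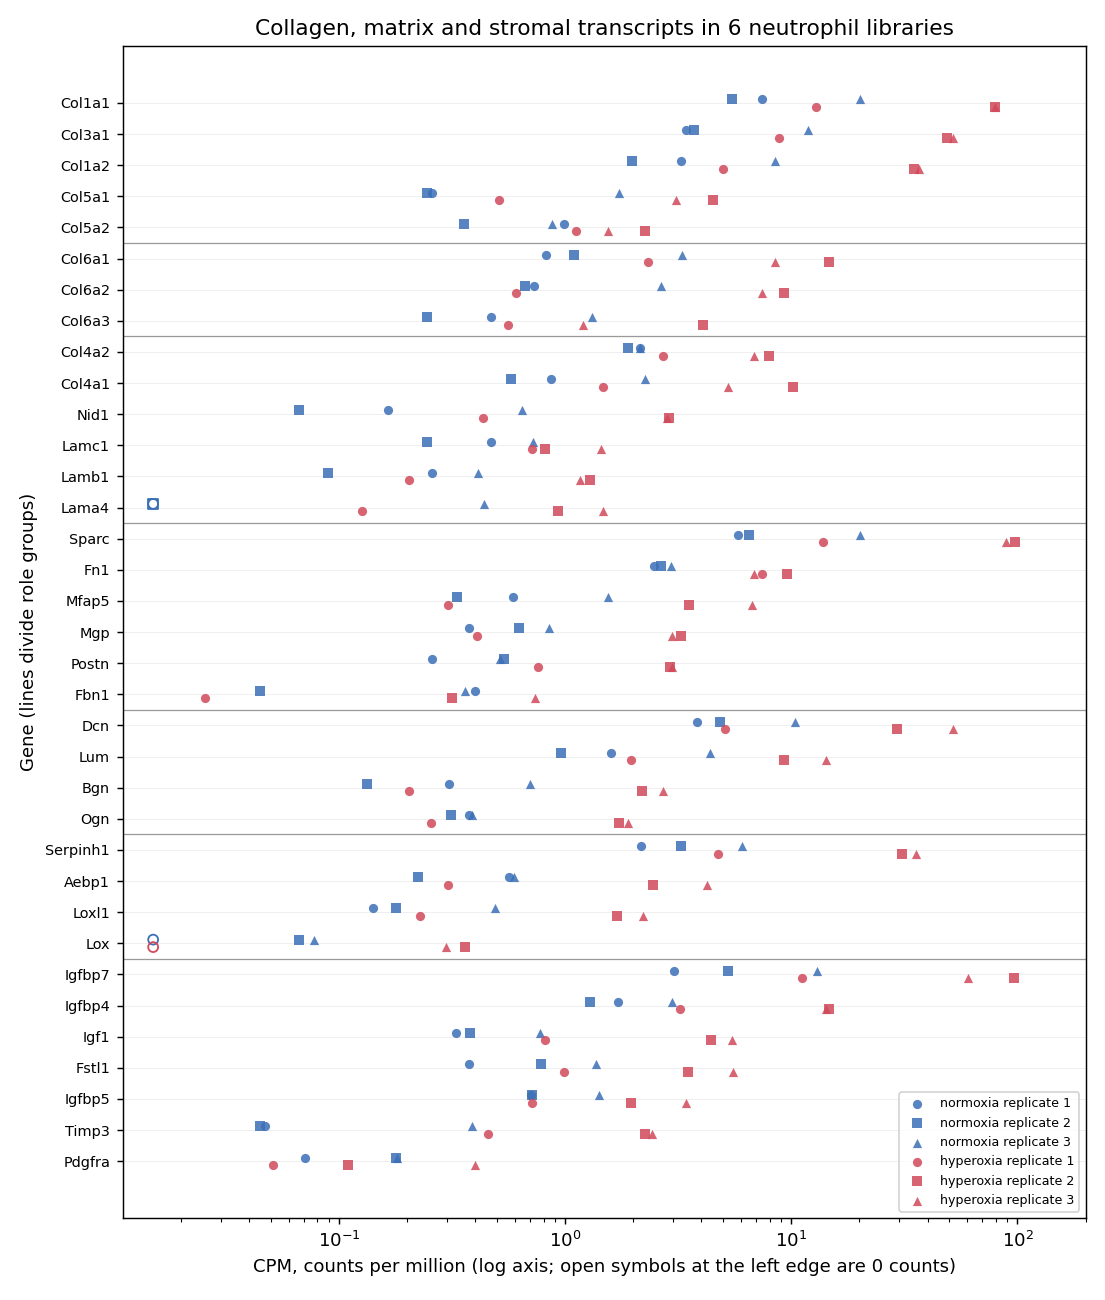
CPM of each of the 35 genes (rows, log axis) in the 3 normoxia libraries (blue) and the 3 hyperoxia libraries (red). Hyperoxia replicates 2 and 3 lay to the right of every normoxia library for 32 genes, whereas hyperoxia replicate 1 did so for 7; open symbols are counts of 0.

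The summed level of the 35 genes was low in 4 libraries and several-fold higher in 2. It was 46.3, 45.8 and 126 CPM in normoxia replicates 1, 2 and 3, and 90.1, 541 and 522 CPM in hyperoxia replicates 1, 2 and 3. Hyperoxia replicate 1 thus lay below normoxia replicate 3, by 1.4-fold, and the groups overlapped. Group means were 72.8 ± 46.3 CPM in normoxia and 384 ± 255 CPM in hyperoxia (SD, n = 3 each), and the difference in mean log2 sum was 2.19, with p = 0.2 in a two-sided exact permutation test, whose smallest possible value for 3 against 3 is 0.1. Leaving out 1 library moved this difference from 1.75 (without hyperoxia replicate 2) to 3.04 (without hyperoxia replicate 1).

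Gene by gene, the mean was higher in hyperoxia for 35 of 35 members. Of the 33 that passed the filter on low counts, 33 had a log2 difference above 0, where 53.7% of all 12908 genes tested did, and their median was 2.19 against 0.04 over all genes. The median ran from 1.79 without hyperoxia replicate 3 to 2.92 without normoxia replicate 3. Under the edgeR quasi-likelihood test, 0 of 33 members had an adjusted p under 0.05, where 0.0% of all genes were called higher. At an unadjusted p under 0.05, 26 of the 33 were higher and 0 lower, beside 9.1% and 3.91% of all genes. DESeq2 called 13 of 35 members higher and 0 lower, beside 3.15% and 0.274% of all genes it tested. That count moved with single libraries, and the share of all genes called higher moved too. It was 26 of 35 without hyperoxia replicate 1 (5.27% of all genes) and 21 of 35 without normoxia replicate 3 (2.83%). It was 5 of 35 without normoxia replicate 1 (1.67%), 5 of 34 without normoxia replicate 2 (1.44%), 4 of 33 without hyperoxia replicate 2 (2.97%) and 3 of 31 without hyperoxia replicate 3 (3.29%), the denominators being the members given an adjusted p. The groups did not overlap for 7 of 33 members, all higher in hyperoxia, beside 9.57% of all genes, and 0 were lower without overlap, beside 10.3%. The filter can pass a gene through 1 group alone, so these counts describe the members and test nothing.

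The same libraries were high for nearly every member. Hyperoxia replicate 3 was the highest library for 19 of the 33 tested members and replicate 2 for 14, beside 23.9% and 26.1% of all genes. Both lay above every normoxia library for 32 of the 35 members, beside 18.6% of all genes tested. Taken singly, each was above all normoxia libraries for 32 of the 33 tested members, beside 37.2% (replicate 2) and 36.9% (replicate 3) of all genes. Hyperoxia replicate 1 lay above every normoxia library for 7 of 35, beside 32.0% of all genes, and below normoxia replicate 3 for 28 of 35, beside 51.1%. Within normoxia, replicate 3 was the highest for 32 of 35 members, beside 33.6% of all genes, and it was the lowest of all 6 libraries for 0 of the 33 tested, beside 10.2%. Its sum was 2.74 times the mean of the other two. For most members, then, libraries of 1 group differed in the same direction across genes.

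**Figure D2:**
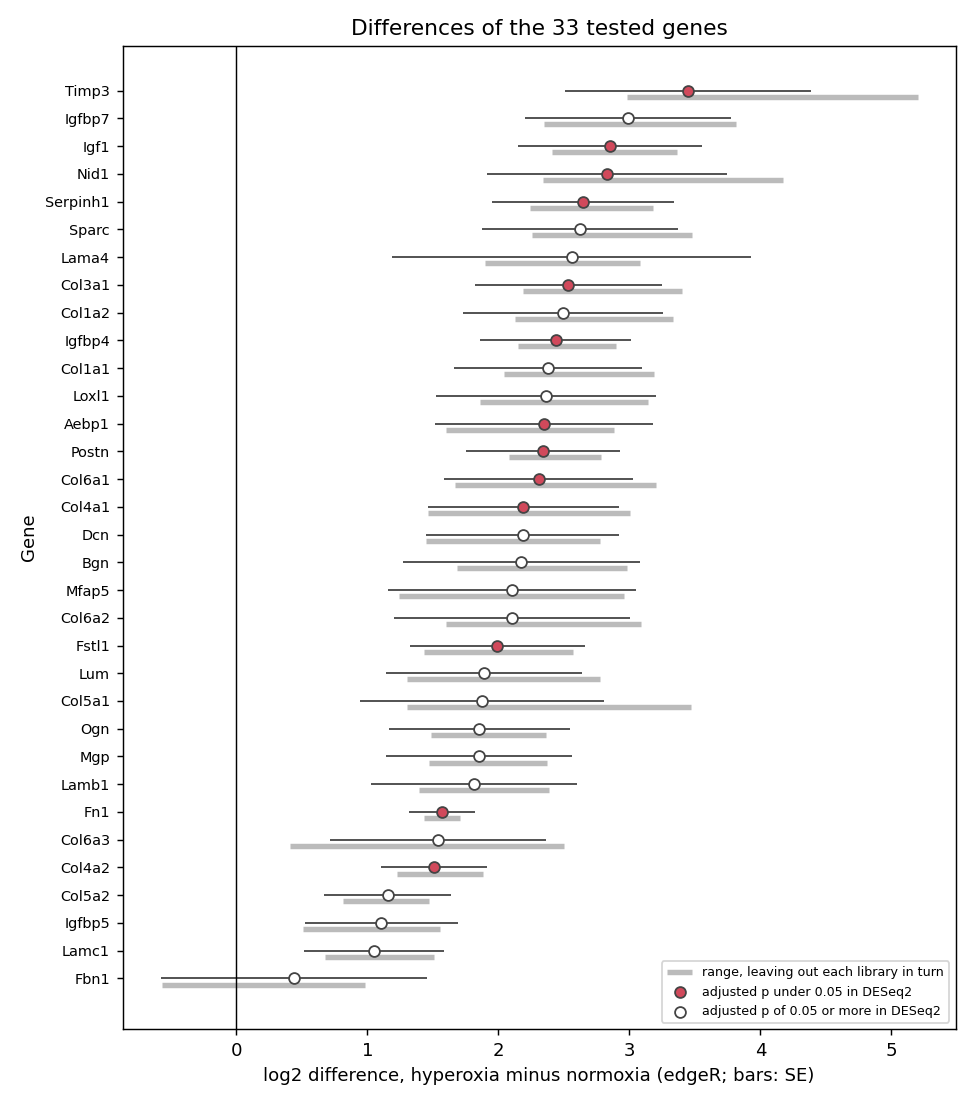
Log2 difference, hyperoxia minus normoxia, of the 33 tested genes in edgeR, with its standard error, and the range when each library in turn is left out (grey; a fit in which 1 group has no count is not drawn, which applies to Lama4). Filled points mark the genes with an adjusted p under 0.05 in DESeq2, 13 in all; only Fbn1 reaches below 0.

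Fibrillar collagens form the tensile fibres of connective tissue. Col1a1, a chain of type I collagen (ENSMUSG00000001506, chromosome 11, 94936224 to 94953042 in GRCm38), stood at 7.45, 5.46 and 20.1 CPM in normoxia, against 12.8, 79.2 and 79.3 CPM in hyperoxia. Col3a1, the chain of type III collagen (ENSMUSG00000026043, chromosome 1, 45311538 to 45349706), stood at 3.42, 3.71 and 11.8 CPM against 8.81, 48.7 and 52.1 CPM. In both genes hyperoxia replicates 2 and 3 were far above the rest and replicate 1 lay between the normoxia libraries. The log2 difference was 2.38 ± 0.72 (SE) for Col1a1 and 2.53 ± 0.71 for Col3a1, with adjusted p of 0.239 and 0.207 in edgeR. DESeq2 gave an adjusted p of 0.00135 for Col3a1 and 0.136 for Col1a1. Col1a2, the partner chain of Col1a1, differed by 2.49 ± 0.77 and also missed the threshold in both tools. The minor fibrillar chains were scarcer: Col5a1 averaged 0.741 ± 0.849 against 2.70 ± 2.03 CPM and Col5a2 0.737 ± 0.336 against 1.64 ± 0.578 CPM (SD, n = 3 each). Col5a2 had groups that did not overlap, with hyperoxia replicate 1 at 1.11 CPM just above normoxia replicate 1 at 0.983 CPM.

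Levels can be compared between genes only per length of the merged exons. On that scale, CPM per kilobase, Col1a1 averaged 1.68 in normoxia and 8.70 in hyperoxia, Col3a1 0.644 and 3.72, and Col1a2 0.366 and 2.06. The order of these chains was the same in each library: Col1a1 exceeded Col1a2 by 4.08 to 5.23 times and Col3a1 by 2.17 to 3.26 times, while the sum of all members varied 11.8-fold between libraries. The merged exons measured 6563 bases for Col1a1, 12426 for Col1a2 and 9816 for Col3a1. The size of these ratios, unlike their steadiness between libraries, depends on those lengths.

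Collagen VI makes beaded microfilaments around cells. Its most abundant chain per length, Col6a1, stood at 0.819, 1.09 and 3.26 CPM in normoxia and at 2.33, 14.7 and 8.47 CPM in hyperoxia. It differed by 2.31 ± 0.72 (log2, SE), and the adjusted p was 0.248 in edgeR and 0.00819 in DESeq2. Col6a2 stood at 0.726, 0.666 and 2.65 CPM against 0.607, 9.23 and 7.43 CPM. Here hyperoxia replicate 1 was the lowest library of all, and the adjusted p was 0.375 in edgeR and 0.408 in DESeq2. Col6a3 had 259 counts in hyperoxia replicate 2 and 57 in replicate 3, and its log2 difference of 1.54 ± 0.82 was 0.41 without replicate 2.

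Basement membrane genes included a pair that are neighbours. Col4a1 (chromosome 8, 11198423 to 11312826, minus strand) and Col4a2 (chromosome 8, 11312805 to 11449287, plus strand), which encode the chains of the common type IV collagen, start head to head and overlap at their first bases. Col4a2 stood at 2.13, 1.89 and 2.13 CPM in normoxia and at 2.71, 7.98 and 6.80 CPM in hyperoxia. Its normoxia libraries were nearly level and its groups did not overlap. Col4a1 stood at 0.866, 0.577 and 2.26 CPM against 1.47, 10.1 and 5.22 CPM, which overlapped. Per kilobase, the ratio of Col4a1 to Col4a2 ran from 0.271 in normoxia replicate 2 to 1.12 in hyperoxia replicate 2, so the pair did not keep 1 proportion between libraries. The log2 differences were 1.51 ± 0.40 (SE) for Col4a2 and 2.19 ± 0.73 for Col4a1, with adjusted p of 0.189 and 0.276 in edgeR and 0.0147 and 0.0194 in DESeq2.

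Nid1, the nidogen that links laminin to collagen IV, had 7, 3 and 25 counts in normoxia and 17, 184 and 134 in hyperoxia. That is 0.164, 0.0666 and 0.642 CPM against 0.430, 2.88 and 2.82 CPM, which differed by 2.83 ± 0.91 (log2, SE), at an adjusted p of 0.267 in edgeR and 0.0156 in DESeq2. The laminin chain genes were at the limit of detection in places: Lama4 had 0, 0 and 17 counts in normoxia and 5, 59 and 70 in hyperoxia. Lamb1 and Lamc1 averaged 0.253 ± 0.161 and 0.477 ± 0.238 CPM in normoxia and 0.882 ± 0.592 and 0.985 ± 0.391 CPM in hyperoxia (SD, n = 3 each), and none of the 3 laminin genes was called by either tool.

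Among the matrix glycoproteins, Sparc was the most abundant per length and Fn1 had the smallest standard error. Sparc, a collagen-binding protein of remodelling tissue (ENSMUSG00000018593, chromosome 11, 55394500 to 55423183), stood at 5.81, 6.52 and 20.2 CPM in normoxia and at 13.8, 97.5 and 88.7 CPM in hyperoxia. It followed the pattern of the collagens, differing by 2.62 ± 0.75 (log2, SE) at an adjusted p of 0.214 in edgeR and 0.0939 in DESeq2. Fn1, fibronectin (ENSMUSG00000026193, chromosome 1, 71585520 to 71653200), stood at 2.46, 2.64 and 2.93 CPM in normoxia and at 7.39, 9.59 and 6.84 CPM in hyperoxia. The groups were well apart and hyperoxia replicate 1 was level with the other two, unlike in the collagens. Fn1 averaged 2.68 ± 0.238 against 7.94 ± 1.46 CPM (SD, n = 3 each). It differed by 1.57 ± 0.25 (log2, SE), the smallest SE among the members, and the adjusted p was 0.0974 in edgeR and 1.13e-04 in DESeq2. In edgeR without a filter its adjusted p was 0.0129, and in limma-voom with sample quality weights 0.041.

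The ratio of Fn1 to Col3a1 per kilobase was 0.604 and 0.599 in normoxia replicates 1 and 2 and 0.705 in hyperoxia replicate 1. It was 0.208, 0.165 and 0.110 in normoxia replicate 3 and hyperoxia replicates 2 and 3, the 3 libraries with the highest collagen level. Col3a1 is itself the divisor, so a high collagen level by itself lowers this ratio. Of 12 macrophage and monocyte markers, 8 were higher in hyperoxia at an unadjusted p under 0.05 in edgeR and 0 lower. The shares of all genes were 9.1% and 3.91%. DESeq2 called 7 of these markers higher, where 3.15% of all genes were called. The marker sum was 969 to 1189 CPM in normoxia and 1434 to 1830 CPM in hyperoxia, with none of the 12 at 0 in any library. Cd68, with the highest CPM of the 12, averaged 554 ± 39.2 against 578 ± 9.93 CPM (SD, n = 3 each). The part of these cells in the Fn1 difference was not tested.

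Postn, periostin, a matrix protein of activated fibroblasts, stood at 0.258, 0.532 and 0.514 CPM in normoxia and at 0.759, 2.92 and 2.95 CPM in hyperoxia. The groups did not overlap, and the log2 difference of 2.34 ± 0.59 (SE) had an adjusted p of 0.17 in edgeR and 0.00429 in DESeq2. The elastic fibre genes were less uniform. Mfap5, a microfibril glycoprotein, had its lowest level in hyperoxia replicate 1 (0.304 CPM) and its highest in hyperoxia replicate 3 (6.72 CPM). Fbn1, fibrillin-1, had 17, 2 and 14 counts in normoxia and 1, 20 and 35 in hyperoxia, a log2 difference of 0.44 ± 1.02 that changed sign with single libraries. The opposite-strand gene Gm9913 covers 20.1% of the exon length of Fbn1, and without a known strand setting their reads cannot be told apart. Mgp, matrix Gla protein, differed by 1.85 ± 0.71 with an adjusted p of 0.33 in edgeR.

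Small leucine-rich proteoglycans bind collagen fibrils and set their spacing. Decorin (Dcn) was the most abundant per length, at 3.82, 4.84 and 10.4 CPM in normoxia and 5.06, 29.5 and 52.0 CPM in hyperoxia. Ogn, osteoglycin, was almost level in normoxia at 0.375, 0.311 and 0.385 CPM, and stood at 0.253, 1.72 and 1.90 CPM in hyperoxia. In Ogn hyperoxia replicate 1 lay below all normoxia libraries while the other two were several times above them. The log2 differences were 2.19 ± 0.73 (SE) for Dcn and 1.86 ± 0.69 for Ogn, and those of Lum (lumican) and Bgn (biglycan) were 1.89 ± 0.75 and 2.18 ± 0.90. All 4 had an unadjusted p under 0.05 in edgeR, adjusted p ran from 0.279 to 0.362, and DESeq2 called 0 of the 4. Hyperoxia replicate 3 was the highest library for all 4.

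Serpinh1 encodes the collagen chaperone HSP47 of the endoplasmic reticulum, and its promoter is among those shown above. It stood at 2.15, 3.24 and 6.01 CPM in normoxia and at 4.73, 31.0 and 35.7 CPM in hyperoxia. The log2 difference was 2.65 ± 0.70 (SE), and the adjusted p was 0.182 in edgeR and 5.40e-04 in DESeq2. Loxl1, a crosslinking oxidase of elastic fibres, had 6, 8 and 19 counts in normoxia and 9, 108 and 105 in hyperoxia (log2 difference 2.36 ± 0.84, adjusted p 0.299 in edgeR and 0.0651 in DESeq2). Lox, the collagen crosslinking oxidase, had 0 to 23 counts and was filtered out. Aebp1, which promotes collagen fibril assembly, averaged 0.458 ± 0.205 against 2.33 ± 1.97 CPM (SD, n = 3 each) and was called by DESeq2 with an adjusted p of 0.0428.

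Secreted growth regulators held the members with the lowest p after Fn1. Igfbp4, an inhibitory IGF-binding protein (ENSMUSG00000017493, chromosome 11, 99041244 to 99054392), stood at 1.71, 1.29 and 2.96 CPM in normoxia and at 3.21, 14.7 and 14.2 CPM in hyperoxia. Igf1, the growth factor it binds (ENSMUSG00000020053, chromosome 10, 87858265 to 87937042), stood at 0.328, 0.377 and 0.771 CPM against 0.810, 4.39 and 5.43 CPM. Neither gene overlapped between groups, but in both hyperoxia replicate 1 was only just above normoxia replicate 3. The log2 differences were 2.44 ± 0.58 (SE) for Igfbp4 and 2.85 ± 0.70 for Igf1, with adjusted p of 0.153 and 0.164 in edgeR and 3.68e-04 and 6.42e-04 in DESeq2. Fn1, Igf1 and Igfbp4 were the 3 members that DESeq2 called whichever library was left out.

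Igfbp7, a secreted protein of vessels and stroma, had the highest level per length of all members, 5.85 CPM per kilobase in normoxia and 46.4 in hyperoxia. In CPM it stood at 3.02, 5.24 and 13.0 in normoxia and at 11.1, 96.9 and 60.1 in hyperoxia. Hyperoxia replicate 1 again lay below normoxia replicate 3, and the log2 difference of 2.99 ± 0.79 (SE) had an adjusted p of 0.182 in edgeR and 0.0527 in DESeq2. Timp3, a matrix-bound inhibitor of metalloproteinases, had 2, 2 and 15 counts in normoxia and 18, 144 and 115 in hyperoxia. Its log2 difference of 3.45 ± 0.94 was the largest among the members, and the adjusted p was 0.191 in edgeR and 0.00232 in DESeq2; it was under the floor of 3 counts in normoxia replicates 1 and 2, and exons of Syn3 on the opposite strand cover 21.3% of its exon length. Fstl1, a follistatin-like glycoprotein, differed by 1.99 ± 0.67 and was called by DESeq2 with an adjusted p of 0.0361, and Igfbp5 differed by 1.11 ± 0.58 and was called by neither tool. Pdgfra, the receptor that marks fibroblasts, had 3, 8 and 7 counts in normoxia and 2, 7 and 19 in hyperoxia, too few for the filter, and its means were 0.143 ± 0.0626 and 0.187 ± 0.187 CPM (SD, n = 3 each).

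**Figure D3:**
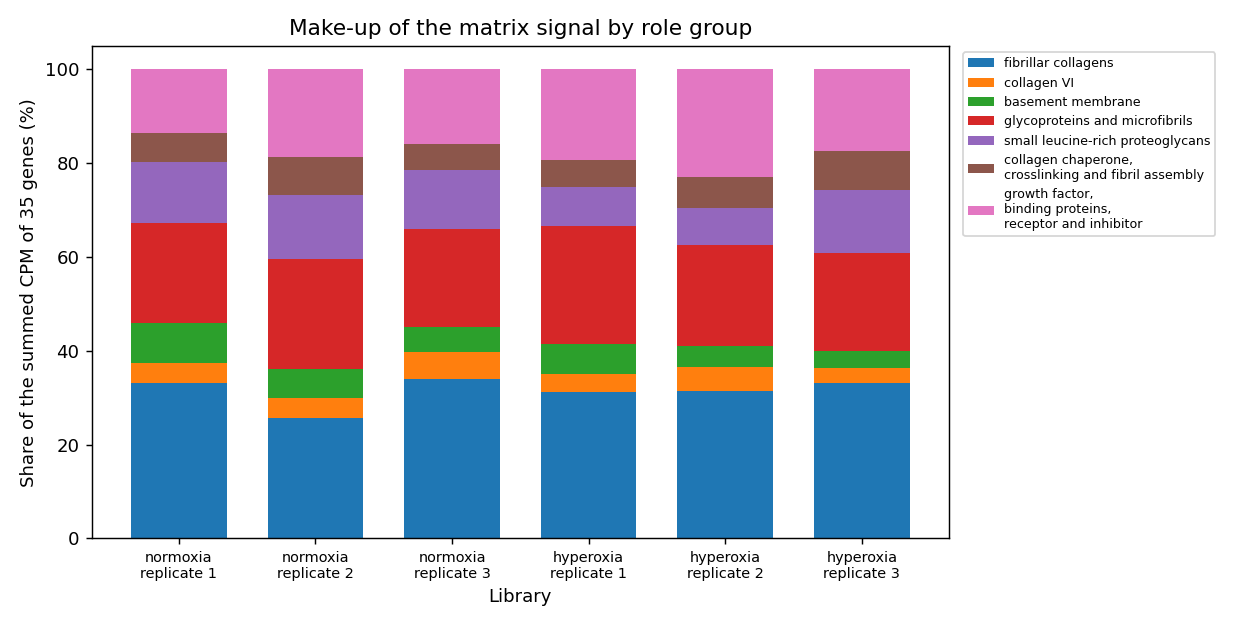
Share of each role group in the summed CPM of the 35 genes, per library. Fibrillar collagens took 25.6% to 34.0% in every library, although the sum itself ran from 45.8 to 541 CPM.

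By role group, the make-up of the matrix signal varied far less than its size. In the stacked plot of shares, fibrillar collagens took 33.1%, 25.6% and 34.0% of the sum in normoxia and 31.3%, 31.4% and 33.1% in hyperoxia, and glycoproteins and microfibrils 20.9% to 25.2% in all 6 libraries. Sparc alone took 12.5% to 18.0% and Col1a1 11.9% to 16.1%. Igfbp7 ranged more widely, from 6.52% in normoxia replicate 1 to 17.9% in hyperoxia replicate 2. Basement membrane genes took 5.23% to 8.39% in normoxia and 3.62% to 6.26% in hyperoxia, and Fn1 from 1.31% in hyperoxia replicate 3 to 8.20% in hyperoxia replicate 1. Small proteoglycans took 12.6% to 13.6% in normoxia and 8.28%, 7.89% and 13.6% in hyperoxia. Shares of scarce genes could vary more than the sum. That of Fbn1 ran from 0.028% in hyperoxia replicate 1 to 0.86% in normoxia replicate 1.

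Hyperoxia replicates 2 and 3 had nearly the same sum but not the same members on top. The 3 collagen VI genes were higher in replicate 2, with a median ratio of 1.73, and the 4 small proteoglycans were higher in replicate 3, with a median ratio of replicate 2 to 3 of 0.73. Over all 35 members the median ratio was 0.95, with 15 higher in replicate 2 and 20 in replicate 3. These are single libraries of 1 group and were not tested against each other.

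Other genes of collagen synthesis and matrix assembly came from lists made by function, also with earlier results of these data known. Of 24 genes of the collagen synthesis machinery, 18 were tested. At an unadjusted p under 0.05, 7 were higher in hyperoxia and 0 lower, beside 9.1% and 3.91% of all genes. In edgeR 0 were called, and the median log2 difference was 1.07. DESeq2 called 3 of the 24 higher, beside 3.15% of all genes it tested. Crtap, a subunit of the prolyl 3-hydroxylase complex, differed by 2.03 ± 0.56 (SE), P3h3, a prolyl 3-hydroxylase family member, by 3.15 ± 0.92, and Bmp1, which trims the procollagen end, by 1.85 ± 0.56, with adjusted p of 0.199, 0.224 and 0.239 in edgeR. The genes of this list with the highest CPM did not follow the collagens: Tgm2, a transglutaminase, was at 996 to 1364 CPM in normoxia and 491 to 1471 CPM in hyperoxia, and P4hb, the protein disulfide isomerase subunit of prolyl 4-hydroxylase, at 507 to 599 CPM against 241 to 667 CPM. Both were lowest in hyperoxia replicate 2, where collagen was high.

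Of 34 other matrix genes, 25 were tested. At an unadjusted p under 0.05, 13 were higher in hyperoxia and 0 lower, beside 9.1% and 3.91% of all genes. DESeq2 called 8 higher of the 32 to which it gave an adjusted p, beside 3.15% of all genes. Col18a1, the precursor of endostatin, differed by 2.46 ± 0.54 (SE), Col5a3 by 2.86 ± 0.70 and Fbln5, an elastic fibre protein, by 2.25 ± 0.59, with adjusted p of 0.14, 0.164 and 0.182 in edgeR. Of 14 fibroblast transcription factors and surface genes, 9 were tested. At an unadjusted p under 0.05, where 9.1% of all genes were higher, 4 of these fibroblast genes were higher in hyperoxia and 0 lower. Their sum was 9.06, 9.67 and 13.8 CPM in normoxia and 14.7, 17.7 and 32.3 CPM in hyperoxia replicates 1, 2 and 3. Hyperoxia replicate 2, with the highest matrix sum, lay nearer to replicate 1 than to replicate 3 here. Of the 9 tested, 8 had a log2 difference above 0, beside 53.7% of all genes. Fap was the exception, at 1.80 ± 0.499 CPM in normoxia against 1.27 ± 0.725 CPM in hyperoxia (SD, n = 3 each). Mmp2, gelatinase A, had the highest mean CPM of the list in hyperoxia though not in normoxia. It was at 2.23 ± 0.375 against 6.24 ± 3.24 CPM (SD, n = 3 each).

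**Figure D4:**
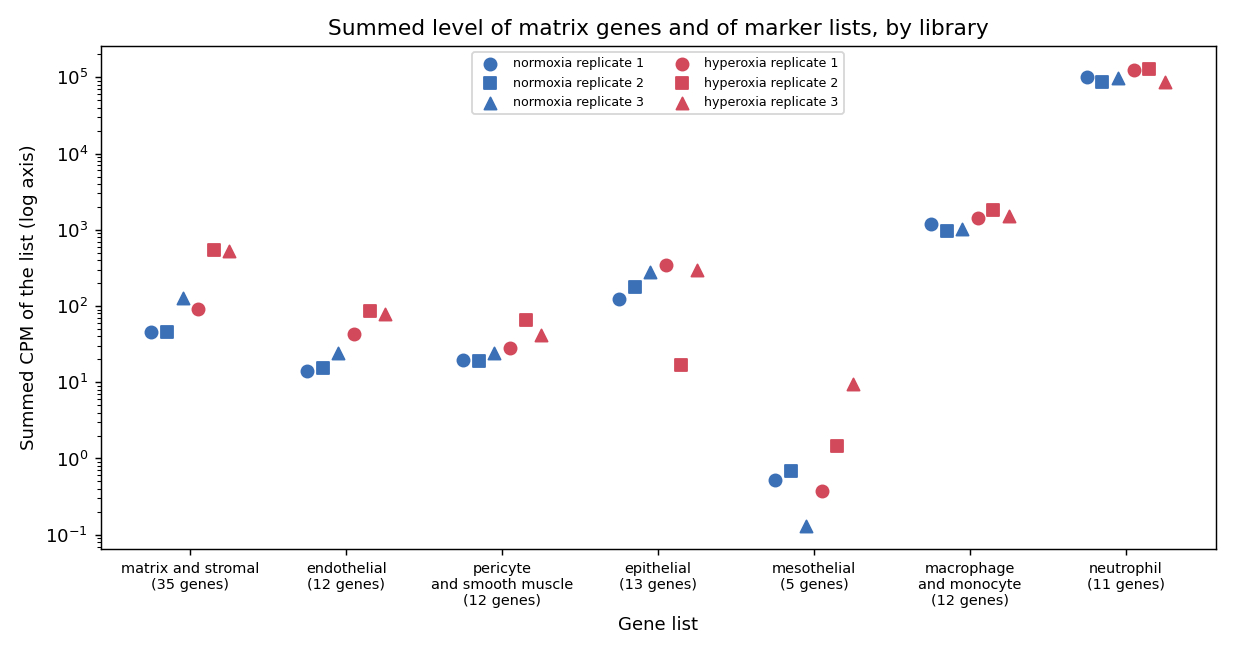
Summed CPM (log axis) of the 35 matrix and stromal genes and of 6 marker lists in each library. The matrix sum is high in hyperoxia replicates 2 and 3; the epithelial sum is lowest, 16.9 CPM, in hyperoxia replicate 2, and the mesothelial sum is highest, 9.43 CPM, in hyperoxia replicate 3.

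Marker lists of other cell types did not all follow the matrix genes. Of 12 endothelial markers, 11 were higher in hyperoxia at an unadjusted p under 0.05, beside 9.1% of all genes. The endothelial sum was 14.0, 15.4 and 24.2 CPM in normoxia and 42.6, 84.8 and 79.5 CPM in hyperoxia. Here hyperoxia replicate 1 lay above all normoxia libraries, but Pecam1 gave 16.3 CPM and Sox17 13.1 CPM of its sum. Pecam1 stood at 7.59 to 8.35 CPM in normoxia and was highest in hyperoxia replicate 1. Plvap, with the highest mean CPM in hyperoxia, was at 0.539 to 2.18 CPM against 5.52 to 27.5 CPM. Pericyte and smooth muscle markers summed to 19.1 to 24.3 CPM in normoxia and to 27.8, 64.7 and 41.3 CPM in hyperoxia replicates 1, 2 and 3. At an unadjusted p under 0.05, 7 of 10 tested genes were higher in hyperoxia, beside 9.1% of all genes. Acta2, smooth muscle actin, averaged 15.4 ± 3.15 against 25.6 ± 6.98 CPM (SD, n = 3 each). Cdh5, Tek, Tie1 and Robo4 among the endothelial genes, and Pdgfrb and Cspg4 among the mural genes, had 0 counts in at least 1 normoxia library.

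The ratio of the matrix sum to the endothelial sum was 3.31, 2.97 and 5.23 in normoxia and 2.11, 6.37 and 6.58 in hyperoxia. Its mean log2 differed by 0.26 between groups, with p = 0.8 in the two-sided exact permutation test (adjusted p = 0.8 over both ratios tested). A ratio of sums weighs the abundant genes most. Pecam1 and Sox17 averaged 7.96 and 5.79 CPM of the mean endothelial sum of 17.9 CPM in normoxia. They differed by 0.61 and 1.34 (log2). Gene by gene, the median log2 difference was 3.33 over the 12 endothelial genes and 2.19 over the 33 tested members. The ratio to the pericyte and smooth muscle sum was 2.33, 2.41 and 5.19 in normoxia and 3.24, 8.36 and 12.7 in hyperoxia. Its mean log2 differed by 1.19, with p = 0.2 in the exact permutation test (adjusted p = 0.4). Acta2 averaged 15.4 CPM of this list's mean sum of 21.1 CPM in normoxia and differed by 0.73 (log2). The median log2 difference over the 10 tested genes of the list was 1.99. Neither ratio, taken over the sums of whole lists, separated the groups beyond the spread between libraries, and 0.1 is the smallest p that the design allows. Ratios without the abundant Pecam1, Sox17 and Acta2 were not taken, so these tests do not cover the other genes of either list.

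Epithelial markers took another course. Their sum was 122, 180 and 275 CPM in normoxia and 347, 16.9 and 293 CPM in hyperoxia replicates 1, 2 and 3, so the library with the highest matrix sum had the lowest epithelial sum. Krt19, with the highest mean CPM in both groups, was at 4.20 CPM in that library and at 29.1 to 78.9 CPM in the others. Of 12 tested epithelial genes, 0 had an unadjusted p under 0.05, beside 9.1% of all genes higher and 3.91% lower. The 5 mesothelial markers summed to 0.128 to 0.688 CPM in normoxia and to 0.380, 1.46 and 9.43 CPM in hyperoxia, with Upk3b, with the highest mean CPM in hyperoxia, at 4.91 CPM in hyperoxia replicate 3, where the small proteoglycans were also highest. T and NK cell markers were likewise highest in that library, at 25.5 CPM, beside 3.21 to 11.4 CPM in normoxia. The B cell sum was 1.33, 1.91 and 2.44 CPM in normoxia and 1.97, 7.41 and 6.23 CPM in hyperoxia, with hyperoxia replicate 1 below normoxia replicate 3 as for the matrix sum. The platelet sum was 2.11 to 8.99 against 2.53 to 9.16 CPM. The part of any of these cells in the matrix difference was not tested. Of 11 neutrophil markers, 0 had an unadjusted p under 0.05, and Il1b, with the highest CPM but not the highest level per length, was at 37060 to 42200 CPM in normoxia and 21880 to 45790 CPM in hyperoxia.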

How the data were processed

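Gene counts of 6 libraries, 3 per group by the housing condition in the labels, were used; part of the shared genotype is not reported here. The authors deposited raw counts per Ensembl gene, whole numbers without normalization; STAR 2.4.2a, DESeq2 1.16.1 and GRCm38 appear, per the submitters' processing notes, among the tools and builds. Counting program, strand setting and annotation release are not given in the sources used here, so reads of opposite-strand genes cannot be told apart. IDs matched GENCODE M21 for 42548 of 43432 genes. Replicates were numbered by accession, which pairs no samples. All library pairs differed by more than counting noise (chi-square per degree of freedom 29.8 to 726).

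Counts were filtered with filterByExpr (12908 genes kept), scaled by TMM and tested with edgeR 4.0.16 (robust quasi-likelihood test, two-sided, Benjamini-Hochberg over all genes tested, R 4.3.3). Variation between replicates beyond counting noise came to 36.4% (coefficient) and may partly be technical. The typical (median) SE on log2 differences was 0.34. Alternatives were DESeq2 1.42.0, limma-voom with sample quality weights (limma 3.58.1), other scaling factors, no filter and leaving out each library; DESeq2 without each library was added after the data were seen. The steps were tested on simulated data. CPM of each library used its TMM-adjusted size, and sums were compared by exact permutation. Counts without molecular identifiers carry more than counting error.

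Per-library values were given for the member of each role group with the highest CPM per kilobase and the 2 with the lowest p, for the 3 lowest p of each pathway list, and for the most abundant gene of each cell list and Ly6g; other genes were named after their values were seen. The members and lists were chosen with earlier results of these data known.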

Additional observations from a re-analysis of the deposited data

How the results depend on the processing

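At an adjusted p of 0.05 edgeR called 0 genes higher and 0 lower; DESeq2 called 472 and 41, quality-weighted limma-voom 61 and 1, and edgeR without a filter 205 and 9. Among the members these were 13, 1 (Fn1) and 2 (Fn1 and Postn) higher, and 0 lower. The shares of all genes called higher were 3.15%, 0.473% and 0.886%. RLE scaling and library size alone gave 0 calls. Leaving out each library in turn gave 0 to 164 genes called higher, 0 to 12 lower and 0 to 7 members in edgeR; every such call came without hyperoxia replicate 1, where Col4a2, Fn1, Postn, Ogn, Serpinh1, Igf1 and Igfbp4 passed (1.21% of all genes higher). DESeq2, refitted in the same way after the data were seen, called 26 members without hyperoxia replicate 1 (5.27% of all genes), 21 without normoxia replicate 3 (2.83%), 5 without normoxia replicate 1 (1.67%) or 2 (1.44%), 4 without hyperoxia replicate 2 (2.97%) and 3 without hyperoxia replicate 3 (3.29%). Members at an unadjusted p under 0.05 numbered 15 without normoxia replicate 2 or hyperoxia replicate 3, against 26 with all libraries. The share of all genes was 9.1% with all libraries and was not taken without these. Of 363 values of single members under the alternatives, 338 kept direction and side of the threshold, 23 passed it, and 2 changed sign, both of Fbn1: 0.44 with all libraries, -0.0783 without normoxia replicate 2 and -0.57 without hyperoxia replicate 3, up to 0.98 without hyperoxia replicate 1. The log2 ratio of the matrix sum to the endothelial sum differed by 0.26 between groups, and by -0.0185 to 0.80 when each library was left out; the value of -0.0185 came without hyperoxia replicate 3. The causes were not tested. No paired analysis was possible because the labels give no replicate numbers. The difference in the mean log2 matrix sum ran from 1.75 to 3.04, and the median over members from 1.79 to 2.92, when each library was left out. Lox, Pdgfra, Lama4, Fbn1 and Timp3 were under the floor of 3 counts in at least 1 library.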
